A study of Mus musculus with 2 samples.

Results

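Bone marrow cells grown with GM-CSF and exposed to heme were compared between culture day 7 and culture day 5 within a single multiplexed single-cell RNA-seq library. The cells were the barcodes of the heme library that carried 1 hashtag, had 500 or more detected genes and had less than 15% of their unique molecular identifiers (UMIs) from mitochondrial genes. By this rule 2665 cells carried the day 5 hashtag and 2772 the day 7 hashtag, together 5437 of the 31339 barcodes in both libraries of the series and of the 25221 barcodes that passed the same filters. The comparison asks which genes differed between these late culture days, both after heme had been added.

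Lineage-negative progenitors came from the leg bones of C57BL/6 mice aged 8 to 10 weeks. All cultures received 20 ng/ml GM-CSF, with 40 ng/ml in the fresh medium of day 2. The heme cultures received 300 µM heme-albumin on day 3 and the control cultures received albumin. Each treatment was 1 library, in which 5 cultures marked by hashtag antibodies for days 0, 3, 4, 5 and 7 were pooled. The series text gives exposures of 0, 24, 72 and 96 h, whereas day 5 lies 48 h after heme addition. Culture days are used here because these sources differ. The authors' figure legend describes separate cultures with different starting days and a harvest on day 7. The hashtag day and the starting date of a culture therefore cannot be told apart. With 1 culture per day there was no replicate, so no test was made, and the 95% intervals (exact Poisson for ratios, exact Clopper-Pearson for shares) cover counting error only.

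Macrophages of the splenic red pulp engulf aged red blood cells, break down their heme and return the iron to the blood. Heme oxygenase 1 (Hmox1) opens the heme ring, ferritin (Fth1, Ftl1) stores the iron that is released, and ferroportin (Slc40a1) exports it. SPI-C (Spic) is the transcription factor known for driving the development of these macrophages. GM-CSF cultures otherwise give rise to neutrophils, macrophages and dendritic cells, and maturing dendritic cells display antigen on MHC class II and gain the migration receptor CCR7.

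The summed UMIs were 51633887 on day 5 and 54438208 on day 7, and levels are given as CPM, the UMIs of a gene among 1000000 UMIs of the culture. The median cell held 12437 UMIs and 3325 genes on day 5 and 17404 UMIs and 4176.5 genes on day 7. Median mitochondrial shares were 4.48% and 5.01%. The 2 libraries had 112 barcode sequences in common. Of 17378 barcodes in the heme library, 1996 carried several hashtags and were left out. Their frequency implies that 3.49% of day 5 and 3.64% of day 7 singlets were doublets within 1 culture, which hashtags cannot show. The cell's own hashtag made up less than 80% of hashtag UMIs in 26.5% of day 5 cells and 29.7% of day 7 cells.

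Promoter sequence is shown for 4 of the named genes. Marco and Spic are macrophage genes with a late change, and Mt2 is a metallothionein gene among the highest ratios. Gclm is an antioxidant enzyme gene whose largest step was from day 3 to day 4, and its day 7 to day 5 ratio was 1.31. No promoter sequence was available for Hmox1, Slc40a1, Ccr7, Mmp9 and Ccl4. Each run is the 250 bases before the start of the gene (RefSeq, GRCm38.p6), written 5′ to 3′ on the strand of the gene. Capitals mark a match, on either strand, to the antioxidant response element TGACNNNGC, the type of site that NRF2 binds.
Marco, chr1:120505025-120505274, minus strand: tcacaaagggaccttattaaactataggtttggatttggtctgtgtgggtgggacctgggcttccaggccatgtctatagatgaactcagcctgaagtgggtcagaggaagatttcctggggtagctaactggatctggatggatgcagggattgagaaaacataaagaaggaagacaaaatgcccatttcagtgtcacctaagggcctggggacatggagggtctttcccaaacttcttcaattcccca
Spic, chr10:88683024-88683273, minus strand: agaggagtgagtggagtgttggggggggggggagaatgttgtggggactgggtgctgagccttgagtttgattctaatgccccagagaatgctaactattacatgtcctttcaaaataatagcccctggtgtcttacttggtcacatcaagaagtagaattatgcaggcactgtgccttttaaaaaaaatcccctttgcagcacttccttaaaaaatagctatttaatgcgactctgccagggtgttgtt
Mt2, chr8:94172368-94172617, plus strand: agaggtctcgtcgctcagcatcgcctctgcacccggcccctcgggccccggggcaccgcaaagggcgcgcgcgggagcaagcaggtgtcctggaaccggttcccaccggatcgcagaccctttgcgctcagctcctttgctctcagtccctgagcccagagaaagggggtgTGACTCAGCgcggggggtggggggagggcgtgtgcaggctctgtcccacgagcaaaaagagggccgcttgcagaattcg
Gclm, chr3:122245307-122245556, plus strand: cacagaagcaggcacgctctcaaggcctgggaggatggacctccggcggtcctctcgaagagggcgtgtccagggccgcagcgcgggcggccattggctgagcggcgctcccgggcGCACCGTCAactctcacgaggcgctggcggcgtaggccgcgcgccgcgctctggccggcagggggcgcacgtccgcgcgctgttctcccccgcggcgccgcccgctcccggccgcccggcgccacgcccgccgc
The first base of the match lay 79 bases before the start in Mt2 and 134 in Gclm, and these letters are not in the windows of Marco and Spic. The motif occurred in 11.5% of all 27025 promoters of this length and in 14.1% of those of genes at 10 CPM or more. Among genes at least 2-fold higher on day 7, 82 of 99 had a promoter sequence and 18 of these (22.0%) held it. Among genes at least 2-fold lower, 84 of 112 had one and 9 (10.7%) held it. A PU.1 type motif, GAGGAAGT, was found in 6 of 82 promoters of the first group (7.32%), 7 of 84 of the second (8.33%), 3.52% of those at 10 CPM or more and 2.79% of all. An NF-kB type motif was also searched and is not shown. The motifs and the genes shown were chosen after the values were seen, and a match describes these letters only.

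Of 8079 genes at 10 CPM or more in either culture, 99 were at least 2-fold higher on day 7 (1.23%) and 112 at least 2-fold lower (1.39%). The median log2 ratio of the genes with 20 or more UMIs was 0.03. In the control library, 1.89% of 7659 genes were at least 2-fold higher and 2.14% lower.

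**Figure D1:**
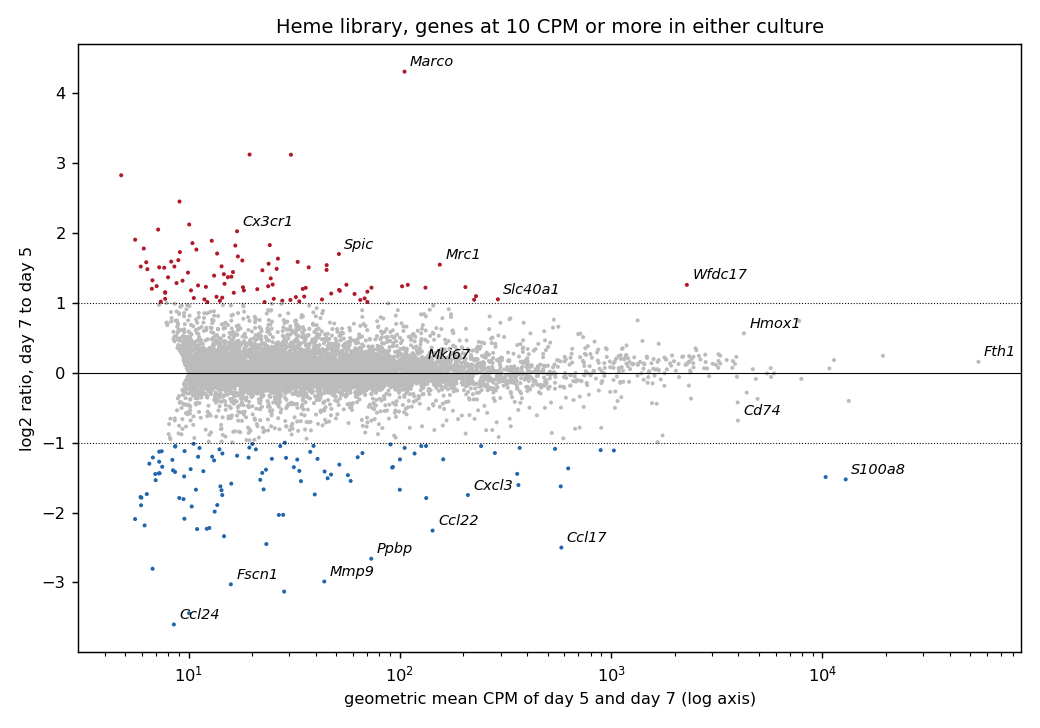
Each point is 1 of the genes at 10 CPM or more in either culture of the heme library, with the log2 ratio of day 7 to day 5 against the geometric mean of its CPM on a log axis. Red and blue points lie past 2-fold (dotted lines), and Marco stands above the others at 4.31.

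Marco, a class A scavenger receptor that binds particles and dying cells, had the highest ratio of all the genes tested. The gene is on chromosome 1 from 120474538 to 120505024 on the minus strand (GENCODE M21, GRCm38). Its level in the heme library was 7.71 and 7.56 CPM before heme (days 0 and 3). It stood at 12.1 CPM on day 4, at 23.6 a day later and at 468 on day 7. The day 7 culture was 19.8-fold above the day 5 culture (18.7 to 21.0), after steps of 1.60-fold from day 3 to day 4 and 1.95-fold from day 4 to day 5. The level before heme is taken as the background of this library. In 88.9% of the day 0 cells of the heme library the own hashtag made up less than 80% of hashtag UMIs, and its part in this level was not tested. The control library held 1 Marco UMI on day 0, and there Marco reached 3.14 CPM on day 7.

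The difference was also measured per cell. After thinning each cell to 2000 UMIs, 2.59% of 2584 day 5 cells (2.01 to 3.28) and 33.1% of 2730 day 7 cells (31.3 to 34.9) had a Marco UMI. Day 0 cells, which should lack it, gave 1.80% of 1725 cells. Median depth before thinning was 10053 UMIs on day 0. Without thinning the shares were 16.6% and 52.5%, with 9.69% on day 0.

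Spic, on chromosome 10, followed another course. It stood at 1.48 CPM on day 0 and 26.2 on day 4, and at 28.5 and 92.7 CPM in the late pair of cultures. The late step was 3.25-fold (3.06 to 3.44). The thinned share of cells with a Spic UMI was 3.95% on day 5 and 16.0% on day 7, against 0.41% on day 0. Control cultures held 0.38 CPM on day 5 and 0.14 on day 7. Mrc1, the mannose receptor, was at 111 CPM before heme on day 3, at 90.3 on day 5 and at 264 on day 7, a ratio of 2.92 (2.83 to 3.02). Treml4, a receptor of red pulp macrophages and some dendritic cells, went from 21.9 to 62.4 CPM. These 3 were the red pulp list's members past 2-fold among 9 tested, of which 7 had a higher and 2 a lower level on day 7. None of those tested was past 2-fold lower, and the list's median log2 ratio over 13 measured members was 0.52.

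**Figure D2:**
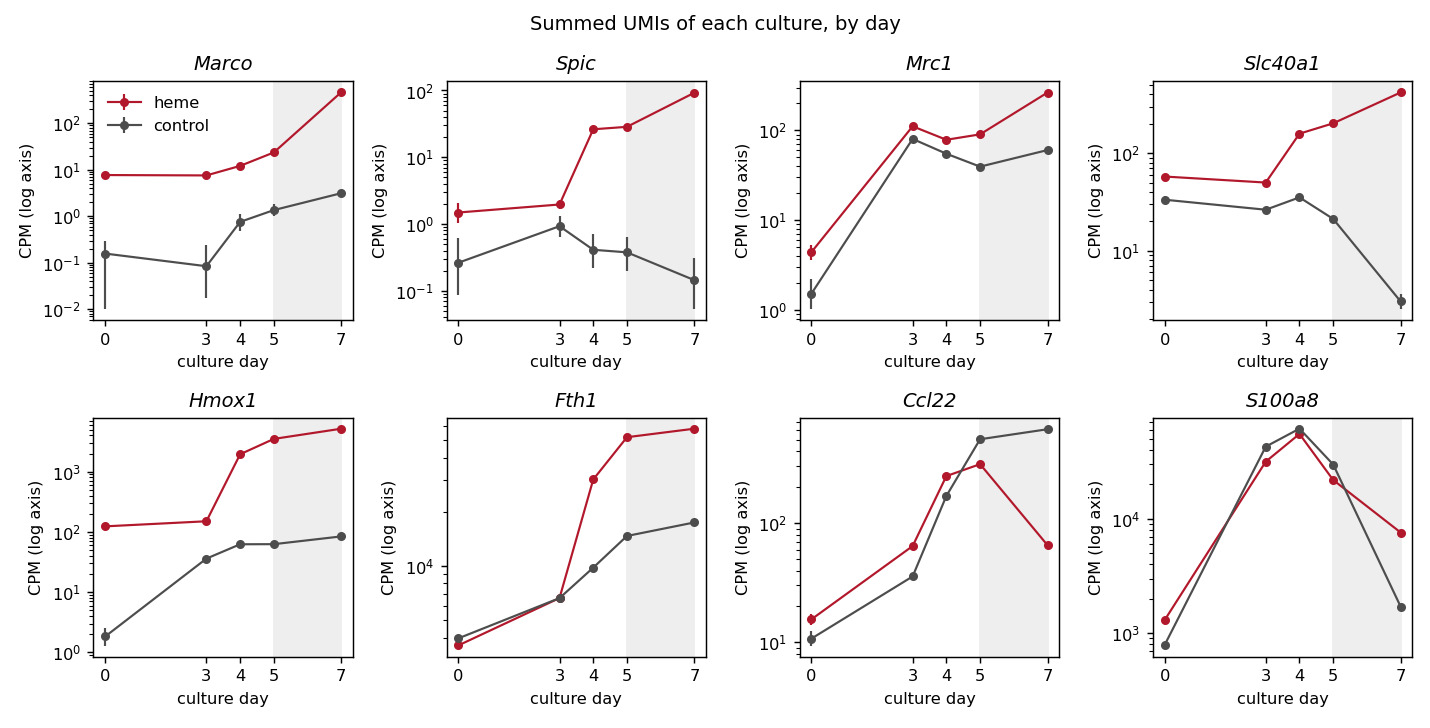
CPM (log axis) by culture day for 8 genes in the heme library (red) and the control library (grey), with exact intervals for counting error and values under 3 UMIs drawn at 3 UMIs. The shaded span is day 5 to day 7, where Marco goes from 23.6 to 468 CPM in heme while Hmox1 goes from 3497 to 5166.

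The heme-handling genes named here differed more between day 3 and day 4 than between day 5 and day 7. Hmox1 was 12.96-fold higher on day 4 than on day 3 and 1.80-fold higher on day 5 than on day 4. From day 5 to day 7 it went from 3497 to 5166 CPM, a ratio of 1.48 (1.47 to 1.49). Fth1 went from 51894 to 57874 CPM and Ftl1 from 17775 to 21033, ratios of 1.12 and 1.18. Both ferritin genes have processed copies in the genome, so their counts are less certain. Slc48a1, which moves heme out of the phagolysosome, had a ratio of 1.12, and Blvrb, a biliverdin reductase, one of 1.00. Slc40a1 was the member past 2-fold, at 202 CPM on day 5 and 419 on day 7, a ratio of 2.07 (2.02 to 2.12). Of 20 tested members of the heme and iron list 17 had a higher level on day 7. The median over 22 measured members was 0.23, against -0.01 in the control library. The authors left out cells over 5000 genes, which are kept in these values. With that limit Hmox1 went from 2320 to 5192 CPM, a ratio of 2.24 and so also past 2-fold, and Blvrb had a ratio of 1.42.

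No gene of the NRF2 and oxidant list passed 2-fold in either direction among 30 tested. NRF2 is the transcription factor that answers oxidants and electrophiles. Gclm, which sets the rate of glutathione synthesis with its partner, was at 1033 CPM on day 5 and 1354 on day 7, a ratio of 1.31. Catalase (Cat) had the highest ratio of the list at 1.75, and glutathione synthetase (Gss) the lowest at 0.66. Slc7a11, the cystine importer, had a ratio of 0.89, Txnrd1 0.86, Nqo1 0.97 and Srxn1 1.16. The list's median was 0.10, and -0.28 in control.

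Some other macrophage genes were also higher on day 7, though the lists share members, such as Mrc1. Among 11 tested macrophage markers, those past 2-fold higher included Mrc1, Mertk and Marco, and Fcgr1, a high-affinity Fc receptor, was past 2-fold lower, from 30.4 to 14.2 CPM. Mertk, a receptor for dying cells, went from 3.87 to 21.2 CPM, and its ligand Gas6 from 1.80 to 12.8. Adgre1, which encodes F4/80, had a ratio of 1.56 and Csf1r one of 1.09. The complement gene C1qa was at 1.89 CPM and Arg1 at 2.09 CPM on day 7 in heme, against 59.2 and 256 in control. Vcam1 was at 2.50 CPM on day 5 and 0.90 on day 7, and Cd163 was represented by 3 and 11 UMIs. The macrophage marker median was 0.55 in heme and 1.12 in control.

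Genes of the list of scavenger receptors and receptors for dying cells, which also holds the ligand Gas6, were found on both sides. Marco, Mrc1, Mertk, Gas6 and Havcr2 were past 2-fold higher, and Cd36 and Olr1 past 2-fold lower, among 15 tested. Cd36, a receptor for oxidised lipids, went from 536 to 254 CPM. Gpnmb, a lysosomal membrane protein, had a ratio of 0.90. Lysosomal genes had a median of 0.29 in heme and 0.28 in control, and none of 23 tested was past 2-fold.

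Under the rule that took the 10 highest ratios among genes at 100 CPM or more, the heme library gave Marco, Mrc1, Wfdc17, Serpinb6a, Ccnd1, Ly6a, Camk1, Mt2, Timp2 and Naaa. Wfdc17, a secreted protein of macrophages, was the most abundant of these, at 1476 CPM on day 5 and 3529 on day 7. Mt2, a metal-binding metallothionein, went from 86.6 to 202 CPM, while its relative Mt3 went from 348 to 168. Ccnd1, cyclin D1, went from 66.7 to 157 CPM, whereas Mki67, a gene of cycling cells, had a ratio of 1.09. None of 24 tested cell cycle genes was past 2-fold.

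Under the same rule the 10 lowest ratios were those of Mmp9, Ppbp, Ccl17, Ccl22, Cstdc5, Cxcl3, Dcstamp, Plet1, Ccl4 and S100a8. Ppbp, a platelet chemokine gene that macrophages can also express, went from 184 to 29.1 CPM. Dcstamp, needed for cell fusion in osteoclasts, went from 178 to 55.9 CPM, and Plet1 from 1014 to 329.

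Genes of mature dendritic cells were lower on day 7. Of 14 tested members 8 were past 2-fold lower, none was past 2-fold higher and all 14 had a lower level, with a median log2 ratio of -1.24 over 19 measured members. Ccl22, a chemokine for T cells, went from 312 to 65.3 CPM, a ratio of 0.21 (0.20 to 0.22). Ccl17, its neighbour on chromosome 8, went from 1383 to 244 CPM. Ccr7 went from 58.2 to 19.9 CPM and Fscn1, which bundles actin in dendrites, from 45.2 to 5.55. Il4i1, Cd83, Socs2 and Cacnb3 were the other members past 2-fold lower. Outside the neutrophil-like clusters described further on, the median was -1.38. In control the same list had a median of 0.41, and Ccl22 went from 505 to 613 CPM and Ccr7 from 67.7 to 165.

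MHC class II genes went the same way by smaller steps. H2-Ab1 went from 931 to 540 CPM, Cd74 from 5045 to 3140 and H2-Eb1 from 792 to 372, and H2-Eb1 was the 1 member of 10 tested past 2-fold. The list's median was -0.75 in heme (-0.89 outside the neutrophil-like clusters) and 0.46 in control. In summed counts of a culture, fewer cells of a type and less RNA per cell cannot be told apart. Interferon-stimulated genes had a median of -0.37, and 1 of 12 tested, Gbp5, was past 2-fold lower. Isg15 was at 7.20 and 5.57 CPM, and Ifit3 was represented by 3 and 11 UMIs.

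**Figure D3:**
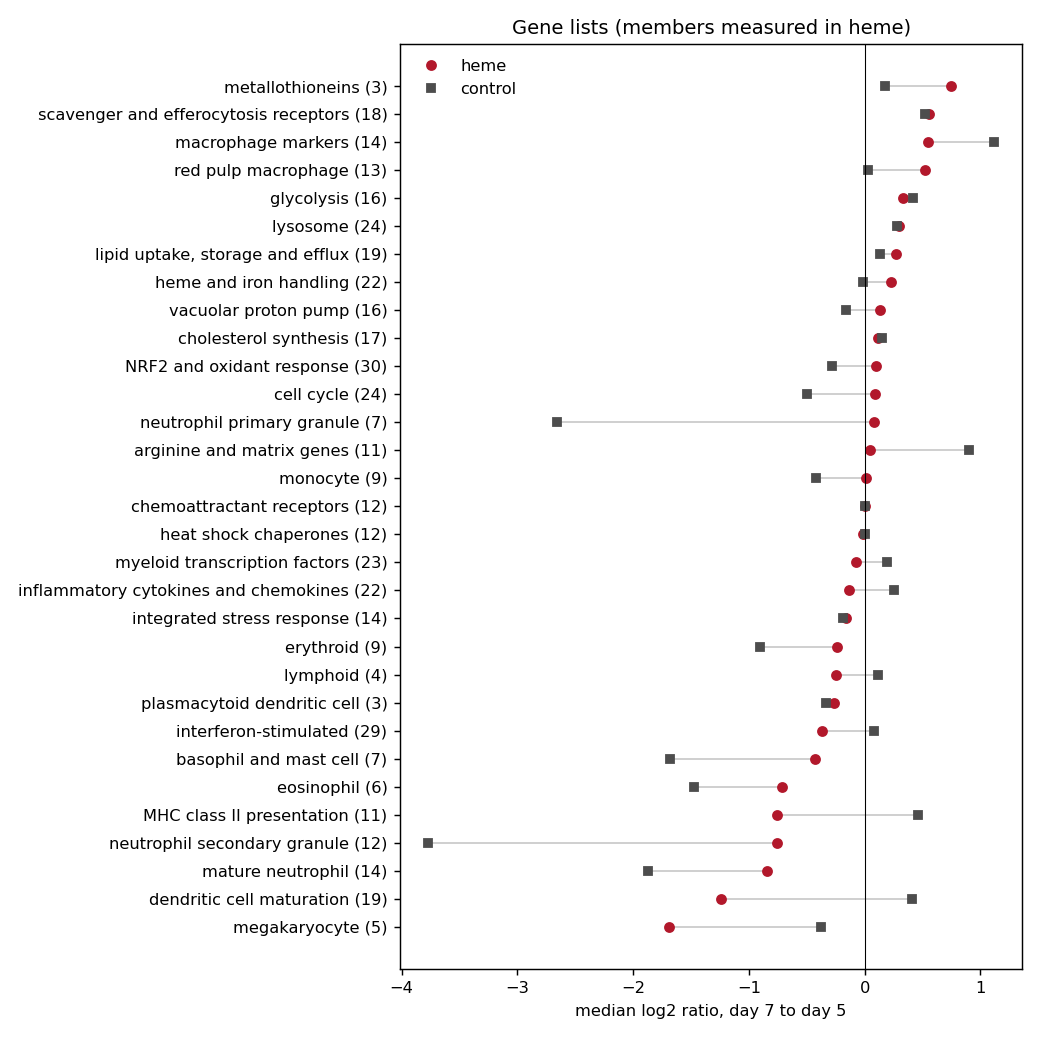
Median log2 ratio of day 7 to day 5 for each gene list, in the heme library (red circles) and the control library (grey squares), with the number of members measured in heme in brackets. Dendritic cell maturation lies at -1.24 in heme and 0.41 in control, and neutrophil secondary granule genes at -0.76 and -3.77.

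The medians of the mature neutrophil and secondary granule lists were lower in both libraries, by unequal amounts. The primary granule median was -2.66 in control but 0.08 in heme (-0.44 with own hashtag 80% or more). Inside the neutrophil-like clusters of the heme library, medians were 0.60 for primary granule, 0.27 for secondary granule and -0.41 for mature neutrophil genes. S100a8, which encodes a calprotectin subunit, went from 21876 to 7598 CPM in heme and from 29888 to 1707 in control. Mmp9, a matrix protease of neutrophils and other cells, went from 123 to 15.6 CPM. The granule genes Camp, Ltf and Ngp had ratios of 1.01, 0.99 and 0.96 in heme, but of 0.487, 0.568 and 0.371 in cells with own hashtag 80% or more, so these levels depend on the hashtag filter. In control, the level of Camp went from 1686 to 81.3 CPM. Of 13 tested mature neutrophil genes 6 were past 2-fold lower, and the median was -0.84 in all cells and -0.37 outside the neutrophil-like clusters.

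Among the remaining lists, medians were 0.75 for the 3 metallothioneins, 0.33 for glycolysis, 0.27 for lipid uptake, storage and efflux, 0.13 for the vacuolar proton pump, 0.12 for cholesterol synthesis, 0.04 for arginine and matrix genes, 0.08 for neutrophil primary granule genes, 0.01 for monocyte genes, -0.02 for heat shock chaperones, -0.08 for myeloid transcription factors and -0.16 for the integrated stress response. Inflammatory cytokines and chemokines had a median of -0.13, with Ccl7 past 2-fold higher and Cxcl3, Ccl4 and Ccl24 past 2-fold lower among 18 tested. Chemoattractant receptors had Cx3cr1, the fractalkine receptor, past 2-fold higher and Cxcr2, a neutrophil receptor, past 2-fold lower among 12 tested. Basophil and mast cell genes had a median of -0.43 over 7 measured members (0.26 with own hashtag 80% or more and 0.50 in cells over 5000 genes), eosinophil genes -0.71 over 6, erythroid genes -0.24 over 9, and lymphoid and plasmacytoid dendritic cell genes -0.25 and -0.27 over 4 and 3. Megakaryocyte genes had -1.69 over 5, of which Ppbp was past 2-fold lower, but the direction reversed to 0.13 and 0.10 in the same settings. Too few stromal and endothelial genes were measured to give a median.

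Cells were grouped into 18 clusters without the heme, iron and oxidant genes, and names were given from fixed markers. The genes that differ between the days took part in the clustering, so these sizes describe the libraries and are no separate result. Clusters left unnamed held 38.8% of day 5 cells and 65.2% of day 7 cells, so the named shares cover only part of each culture. Neutrophil-like clusters 1, 3, 6 and 14 held 39.8% of day 5 cells (38.0 to 41.7) and 12.3% of day 7 cells (11.1 to 13.5). They contributed 14.2% of the UMIs on day 5 and 4.96% on day 7. Dendritic cell-like clusters 5, 12 and 13 held 20.0% and 12.4%. Within them, clusters 12 (led by Ccl5, Ccl22 and Ccr7) and 13 (led by Rbp4, Plet1 and Ptx3) went from 168 to 49 and from 257 to 86 cells, while cluster 5 (led by Mgl2 and Asgr2) went from 109 to 208. The name covers unlike clusters. Ccr7 was at 615 and 985 CPM in cluster 12 on days 5 and 7, 1.80 and 6.30 in cluster 5, and 2.04 and 0.24 in cluster 13. Csf1r was at 73.5 and 26.3 CPM in cluster 12, 260 and 256 in cluster 5, and 263 and 260 in cluster 13. On day 7 it was at 262 in cluster 16, described below. Cluster 12 alone held 6.30% of day 5 cells and 1.77% of day 7 cells.

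Cluster 16, led by Igf1 and Marco, was the only one named macrophage-like. It held 0 of 2665 day 5 cells, for which the exact interval reaches 0.138% and 3 counts would be 0.113%, and 244 of 2772 day 7 cells (8.80%). Values within macrophage-like cells could therefore not be compared between the days. Cluster 2, led by Marco, Cx3cr1, Spic and Mrc1, did not meet the naming rule and held 1.09% of day 5 cells and 16.4% of day 7 cells. The name depended on the clustering. At a resolution of 0.5 the macrophage-like class held 3.08% and 29.1% of the cells, and there Marco was at 31.5 CPM on day 5 and 814 on day 7 while Hmox1 was at 6598 and 7331, ratios of 25.9 and 1.11. With cells over 5000 genes left out the class held 65 and 812 cells, Marco was at 103 and 852 CPM and Hmox1 at 5154 and 7078, ratios of 8.30 and 1.37.

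**Figure D4:**
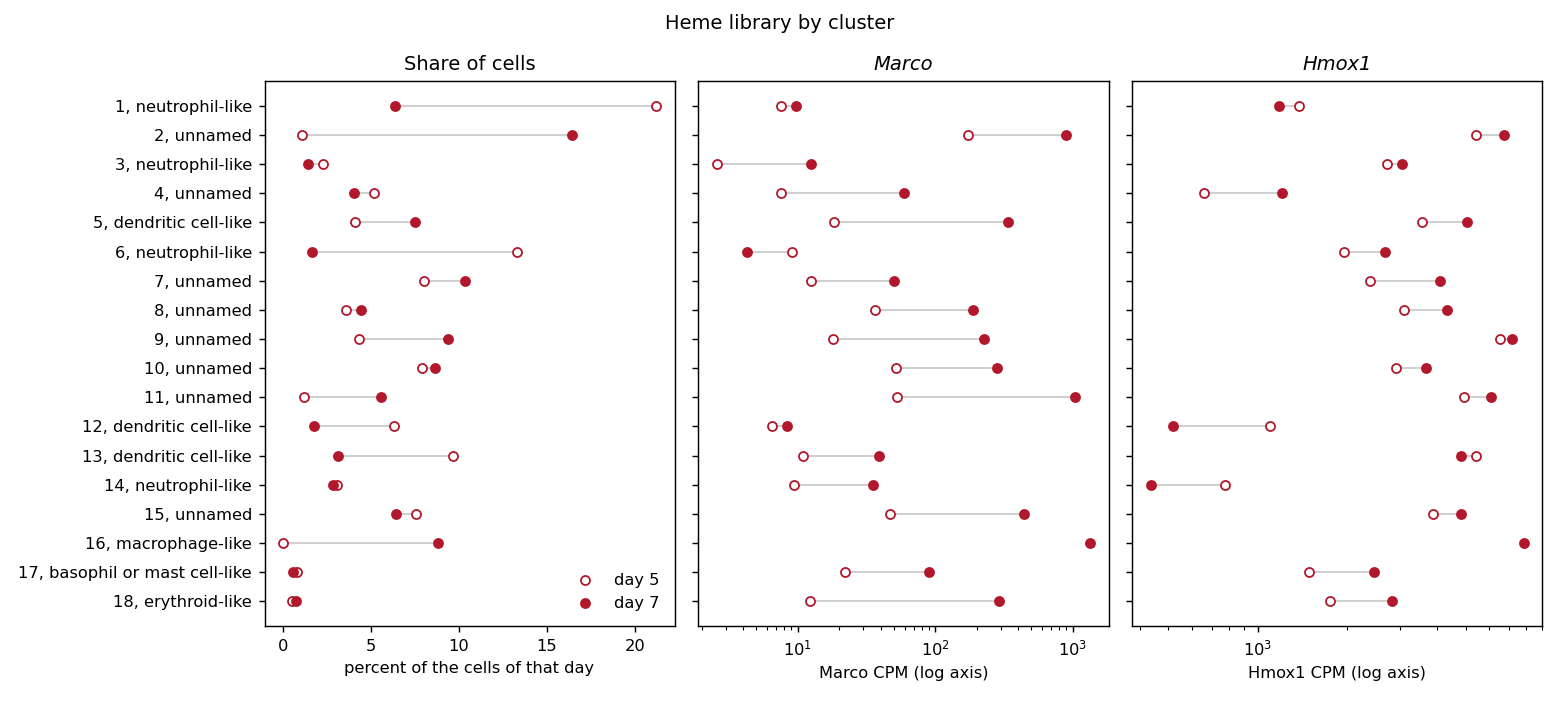
Share of each day's cells, Marco CPM and Hmox1 CPM (both on log axes) in the 18 clusters of the heme library on day 5 (open circles) and day 7 (filled circles), with no day 5 circle for the levels of cluster 16. Marco is higher on day 7 in clusters named and unnamed, such as cluster 15 with 47.1 and 441 CPM.

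Marco was higher on day 7 inside clusters as well, in a summary by cluster that was added after the data were seen. Of the 10 clusters with at least 50 cells on each day, all 10 had a higher Marco level on day 7 and 9 were past 2-fold, with ratios from 1.28 to 18.4. The ratio of 1.28 was that of neutrophil-like cluster 1, at 7.61 and 9.78 CPM. Its counting interval of 0.58 to 2.66 includes no change, and these levels are near the background before heme. Cluster 5, led by Mgl2 and Asgr2, went from 18.3 to 337 CPM, and cluster 9, led by Bhlhe41 and Atp6v0d2, from 18.1 to 224. Hmox1 was higher in 7 of these 10 clusters, and in none was it past 2-fold. Slc40a1 was higher in all 10 and past 2-fold in 5. Of the dendritic cell genes, Ccl17 was lower in all 10 and past 2-fold in 4. H2-Ab1 was higher in 6 (past 2-fold in 2, and past 2-fold lower in 0), Ccl22 higher in 5 and Ccr7 higher in 4. Many of these levels were low. H2-Ab1 was past 2-fold in clusters 4 (32.5 to 77.5 CPM) and 7 (50.3 to 106), against 2169 to 2446 in cluster 13. In the 10 clusters Ccr7 was at 6.30 CPM or less and Ccl22 at 64.1 or less. In cluster 12, with 49 cells on day 7, Ccr7 was 1.60-fold higher (1.49 to 1.73). There H2-Ab1 had a ratio of 0.74 (0.70 to 0.78), Ccl22 0.86 (0.83 to 0.90) and Ccl17 0.98 (0.93 to 1.02).

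Because the neutrophil-like share differed between the days, the comparison was repeated in the other cells, an alternative added after the data were seen. There 1.31% of 8107 genes were past 2-fold higher and 1.49% lower. These included 86 of the 99 and 96 of the 112 genes past 2-fold in all cells. The Marco ratio was 18.8, that of Spic 2.98, of Mrc1 2.66 and of Ccl22 0.19. In the neutrophil-like clusters Marco was at 8.05 CPM on day 5 and 20.0 on day 7.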

How the data were processed

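Cultures of mouse bone marrow progenitors were profiled as pooled, hashtag-labelled single-cell libraries. As deposited, each matrix lists unnormalized UMI counts of genes in barcodes, which the authors obtained from Cell Ranger (4.0.0 in the submitters' processing notes, 5.0.0 in the matrix header), on GRCm38.p6. The deposited hashtag calls are the authors' own. The members and gene lists were chosen with earlier results of these data known. Counts were summed per culture and divided by the culture's total. Ratios carry exact Poisson intervals. The ratio code was tested on simulated data. A gene was counted past 2-fold at 10 CPM or more in either culture. Named genes were 36 preset genes, the 10 highest and 10 lowest ratios at 100 CPM or more (without mitochondrial, ribosomal and unnamed genes), and the extremes of each of 32 lists at 20 CPM or more. The same choice within macrophage-like cells could not be made. Clusters were made in scanpy 1.11.5 from 2000 variable genes, 15 principal components and 15 neighbours by the Leiden method at resolution 1, and named when 3 or more markers were raised. TMM factors came from edgeR 4.0.16 and size factors from DESeq2 1.42.0, both as alternatives. Other alternatives changed the filters, the clustering and the thinning. Of the named genes, 1 is not reported here.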

Additional observations from a re-analysis of the deposited data

Results flagged for a closer look

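For 3 named genes the heme and control libraries moved past 2-fold in opposite directions between day 5 and day 7. With 1 culture per day in each library, the difference was not tested. Over all genes, 46 past 2-fold higher in heme were at 10 CPM or more in either control culture. Of these, 1 was past 2-fold lower in control and 19 were past 2-fold higher. Among 100 such genes past 2-fold lower in heme, 10 were past 2-fold higher in control and 24 past 2-fold lower. Slc40a1 had a log2 ratio of 1.05 in heme and -2.81 in control, a difference of 3.86 (counting interval 3.59 to 4.14), and its control level on day 7 was 3.02 CPM. Ccr7 had -1.55 in heme and 1.29 in control, a difference of -2.84 (-2.96 to -2.72). Cxcl3, a chemokine for neutrophils, had -1.75 in heme and 1.76 in control, a difference of -3.51 (-3.61 to -3.41).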

How the results depend on the processing

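No paired analysis was possible because each library holds 1 culture per day. Of 42 named genes past 2-fold, 0 changed sign under the alternatives run, but 16 fell under 2-fold in at least 1 of them. Timp2 went from 1.16 to 0.30 with the mean over single cells and Cd36 from -1.07 to -0.67. In cells over 5000 genes only, Cxcr2 went from -1.99 to -0.20, S100a8 from -1.53 to -0.64, Chil3 from -1.37 to -0.55 and Slc40a1 from 1.05 to 0.83. A limit of 5000 genes per cell, which 28.3% of day 5 and 27.3% of day 7 cells exceed, gave 210 genes past 2-fold higher and 171 lower, and moved Hmox1 from 0.56 to 1.16, Cxcl3 from -1.75 to -0.62 and Ccl4 from -1.61 to -0.59. The mean over single cells gave 164 genes higher. A minimum of 1 CPM gave 239 higher and 328 lower, and one of 50 CPM gave 31 and 48.

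With the 5000-gene limit the list medians moved to 0.43 for lysosome, -1.26 for neutrophil secondary granule, 0.24 for cholesterol synthesis and -0.12 for cell cycle. In cells over 5000 genes only (added after seeing the data) they were 0.035 for neutrophil secondary granule, 0.32 for cell cycle, 0.50 for basophil and mast cell, -1.11 for erythroid and 0.10 for megakaryocyte, whose median of -1.69 reversed. Without the neutrophil-like clusters they were -0.89 for MHC class II and 0.0092 for cell cycle. With own hashtag 80% or more they were -1.50 for neutrophil secondary granule, 0.0020 for cell cycle, 0.26 for basophil and mast cell, 0.13 for megakaryocyte and -0.12 for plasmacytoid dendritic cell. The mean over single cells gave -1.13 for neutrophil secondary granule, 0.24 for cell cycle and -0.91 for plasmacytoid dendritic cell. Without the 5% of cells with most UMIs, cell cycle was -0.0023. The cause was not tested.

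The change in the neutrophil-like share, -27.6 percentage points, was -30.8 at resolution 2, -29.8 with heme, iron and oxidant genes kept in and -47.1 with the 5000-gene limit. For dendritic cell-like cells it was -7.66, and -12.8 at resolution 0.5, -11.2 at resolution 2, -11.5 with 30 principal components and -11.4 with those genes kept in. For macrophage-like cells it was 8.80, and 26.0, 21.7 and 12.0 in the same first 3 settings, 36.9 with the 5000-gene limit and 33.1 with a class per cell, where 16.0% of cells lay within 0.1 of the next class. Day 5 cells in that class numbered 82 at resolution 0.5, 18 at resolution 2, 11 with 30 principal components, 4 with those genes kept in and 65 with the 5000-gene limit.

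The change in the share of cells with a UMI, thinned to 1000, to 5000 and not thinned, was 23.7, 37.5 and 35.9 percentage points for Marco, 7.31, 21.2 and 31.8 for Spic, and 13.3, 34.4 and 36.2 for Mrc1. For Ccr7 it was -3.77 when thinned to 5000. The spread between replicate cultures is unknown. Ratios within macrophage-like cells with TMM factors were not run, since that class held no day 5 cells.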
